A study of Mus musculus with 72 samples.

Results

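The Hox genes encode homeobox transcription factors that give nerve cells their place along the length of the hindbrain and spinal cord. They lie in 4 clusters, HoxA on chromosome 6, HoxB on chromosome 11, HoxC on chromosome 15 and HoxD on chromosome 2, and genes at the same place in different clusters form a numbered paralogue group. As general background, genes of low paralogue number are switched on from the hindbrain backwards, genes of higher number start further back in the spinal cord, and the highest numbers mark the tail, limb ends and genital region. The forebrain and midbrain in front of the hindbrain do not use these genes for their patterning, and Hox transcripts in the nervous system are known mainly from the hindbrain and cord.

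The Hox genes described here are the 20 protein-coding genes of the HoxA, HoxB, HoxC and HoxD clusters that appear by name in the tables of morphine against saline that the authors deposited, out of 55401 genes in the count table and 39 protein-coding Hox genes in it. All 20 appear in the tables of the PND1 window, 3 in those of 3-Tri and 1 in those of PND14, so the choice leans towards the PND1 window. The 19 Hox genes outside the choice had between 0 and 29 counts each over all 72 libraries, and Hoxd8 had the 29.

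RNA from the brains of C57Bl/6 mouse pups (C57Bl/6NTac in the study's methods) was sequenced in 72 libraries, in 3 windows of exposure to morphine or saline. For PND1, an osmotic minipump in the dam delivered saline or 10 mg/kg/day of morphine before birth, and dissection followed 6 h after the litter was found on day 1, with 4 female morphine, 6 male morphine, 7 female saline and 7 male saline libraries. In the PND14 window pups were injected 2 times a day from day 1 with morphine at 10 mg/kg or with saline. They were dissected 6 h after the last injection on day 14. In the 3-Tri window the dam's minipump was followed by these injections. Both windows had 6 libraries in each group of drug and gender code. The study's methods name the right brain hemisphere as the source of the RNA and the submitters' design text names the cortex, and that text gives day 15 for the PND14 cohort. The study's text also calls the sampled tissue forebrain, and no source used here gives the line of the cut behind it. The labels do not tie pups to litters, so p-values measure only the spread between these pups.

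Libraries held 20742862 to 27333125 counts at PND1, 4407544 to 21404819 at PND14 and 3113919 to 19938980 at 3-Tri. The sex-linked genes went against the gender label in 4 PND1, 0 PND14 and 12 3-Tri libraries, so gender is given as a code throughout and calls that rest on it are also given with those libraries left out. CPM are counts per 1000000 counts of the library in genes that passed the low-count filter of its window, after TMM scaling. Forebrain markers such as Emx2 and Lhx2 were plainly present at PND1, with a summed level over 13 markers of 860 to 1328 CPM. The sum over 18 markers of hindbrain and spinal neurons was 36.8 to 170 CPM. Markers of both kinds were thus detected, and sums over different genes measure no share of tissue. In bulk RNA, fewer cells of a type and less RNA per cell cannot be told apart.

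The promoters of an anterior and a posterior member are shown, since the results below turn on how these ends of the series differ between libraries: Hoxa2, which sets the identity of hindbrain segments and the branchial arch skeleton, and Hoxb8, which acts in the dorsal horn of the spinal cord. The 250 bases before each start come from RefSeq on GRCm38.p6, where 12 of the 20 genes had an entry. Hoxa2 is at chr6:52164832-52165081 on the minus strand and Hoxb8 at chr11:96281655-96281904 on the plus strand. Capitals mark letters that match a Meis motif (TGACAG), a Cdx motif (TTTATG) or a combined Hox-Pbx motif (TGATNNAT), searched on both strands.
Hoxa2: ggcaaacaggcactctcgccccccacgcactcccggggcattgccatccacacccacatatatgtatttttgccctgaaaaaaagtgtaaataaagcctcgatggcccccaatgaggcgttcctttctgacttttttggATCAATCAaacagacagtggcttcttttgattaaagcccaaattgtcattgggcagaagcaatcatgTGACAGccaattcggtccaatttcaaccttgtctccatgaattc
Hoxb8: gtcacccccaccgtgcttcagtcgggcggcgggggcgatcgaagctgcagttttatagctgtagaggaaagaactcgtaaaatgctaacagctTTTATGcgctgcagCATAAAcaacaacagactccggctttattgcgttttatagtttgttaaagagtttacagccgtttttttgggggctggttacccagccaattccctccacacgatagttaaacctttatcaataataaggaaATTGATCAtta
In the Hoxa2 promoter a Meis match began 44 bases before the start and a Hox-Pbx match 111 bases before it on the other strand. In the Hoxb8 promoter 2 Cdx matches began 157 and 143 bases before the start, the nearer on the other strand, and a Hox-Pbx match began 11 bases before it on the other strand. Meis and Pbx proteins are the DNA-binding partners of Hox proteins, and Cdx proteins switch on posterior Hox genes in the embryo. A Cdx match was present in 4 of the 12 Hox promoters (Hoxd3, Hoxd4, Hoxa7 and Hoxb8) and in 10.8% of 32851 promoters of that length. A Meis match was present in 2 (Hoxa2 and Hoxa3) against 15.9%, and a Hox-Pbx match in 2 (Hoxa2 and Hoxb8) against 7.68%. For Hoxa3, Hoxa7 and Hoxd13 the bases after the RefSeq start were not found unbroken in a GENCODE M21 transcript of the gene. Their starts are therefore less sure. These are descriptions of letters and say nothing of binding in these brains. The Cdx genes were at or near 0 at PND1, with 0 counts for Cdx2, 13 for Cdx1 and 6 for Cdx4 over 24 libraries.

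Hox RNA was present at PND1 and nearly gone at day 14, and at PND1 its amount varied between pups far more than between drug groups. The 20 genes together had 16689 counts over the 24 PND1 libraries and 342 over the 48 day 14 libraries, 158 at PND14 and 184 at 3-Tri. Pooled over libraries this was 30.4 CPM against 0.474 CPM, a ratio of 64.2 (95% interval 57.7 to 71.6, which covers counting error only). The summed Hox level of a PND1 library had a median of 15.2 CPM and ran from 0.0431 to 132 CPM, a 3053-fold range. The lowest value is 1 Hox count, in female saline 4, so that fold is only a rough size. PND14 libraries ran from 0 to 1.76 and 3-Tri libraries from 0 to 1.30 CPM.

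At PND1 the 4 female morphine libraries had summed Hox levels of 0.966, 3.42, 37.1 and 12.9 CPM. The 6 male morphine libraries had a lowest level of 11.4, a median of 78.0 and a highest of 132 CPM. Among the 7 female saline libraries the lowest was 0.0431, the median 5.28 and the highest 69.0 CPM. The 7 male saline libraries ran from 0.329 over a median of 15.9 to 56.6 CPM. The male morphine group thus had the highest median and 4 libraries above every other PND1 library, yet its 2 lowest libraries lay within the range of each other group. At PND1 the standard deviation over libraries was 69.4% of the mean in male morphine and 103% to 127% in the other 3 groups.

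**Figure D1:**
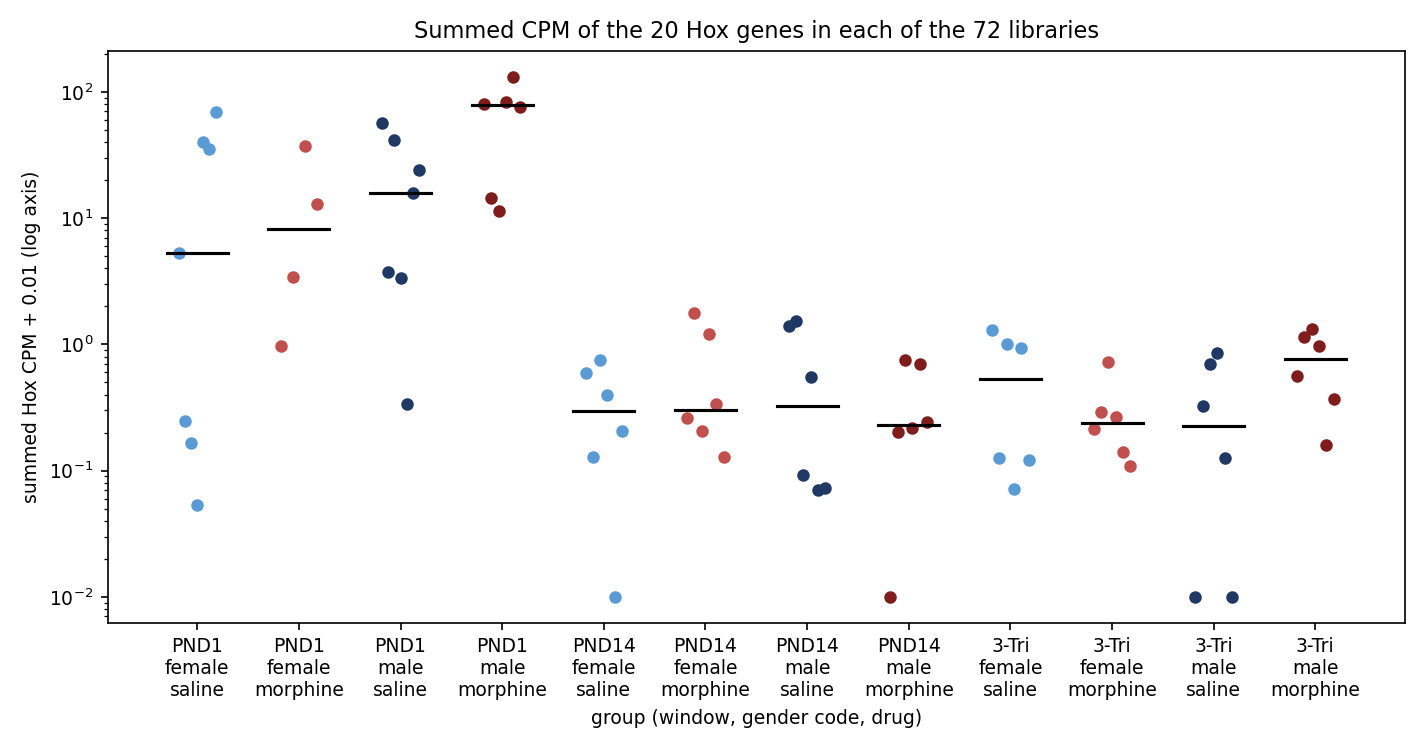
Summed level of the 20 Hox genes in each of the 72 libraries (CPM + 0.01, log axis), by window, drug and gender code, with the median of each group as a bar. PND1 libraries spread from 0.0431 to 132 CPM, and the day 14 libraries lie at or under 1.76 CPM.

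The first paralogue groups belong to the hindbrain, and group 3 held the largest share of Hox counts. Of the PND1 Hox counts, group 1 held 0.815%, group 2 7.87%, group 3 43.6%, group 4 18.9%, group 5 19.98%, group 6 2.17%, group 7 1.17%, group 8 5.28% and group 13 0.192%. These shares are pooled over libraries of unequal Hox level, and male morphine libraries supplied 8656 of the 16689 counts and 721 of the 882 of group 8. By cluster, HoxB held 41.7%, HoxA 29.5%, HoxC 14.5% and HoxD 14.3%. Levels per length divide by the whole exon length, bases shared with other genes included. Summed over a paralogue group, they also depend on its number of members. Groups 1, 2, 6 and 7 have 2 Hox genes here, groups 3 and 5 have 3, group 4 has 4 and group 8 has 1. Per length, the median summed level over libraries rose from 0.0835 CPM per kb in group 1 through 1.02 in group 2 to 2.11 in group 3. It then stepped down through 1.17 in group 4 and 0.511 in group 5 to 0.0111 in group 6, 0.0253 in group 7 and 0.0151 in group 8. Group 4 was thus above group 5 by this median, and below it in the pooled counts. The ranges over libraries of every neighbouring pair of groups overlapped, because each range reached 0.

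In group 1, Hoxd1 had 37 counts in 14 of 24 PND1 libraries. Hoxa2 led group 2 at 0.975 CPM per kb, and Hoxb2, needed for the facial motor neurons, had 379 counts against 934 for Hoxa2.

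Group 3 genes act in the caudal hindbrain and, for Hoxa3, in the thymus and other pharyngeal organs. Hoxb3 led at a mean of 1.15 CPM per kb, and its PND1 libraries ran from 0 over a median of 4.37 to 16.2 CPM. Hoxa3 ran from 0 over a median of 1.78 to 19.7 CPM, and Hoxd3 from 0 over 3.42 to 14.1 CPM. Exons of Hoxb3 share 52.9% of their bases with the antisense gene Hoxb3os, those of Hoxd3 share 62.8% with Hoxd4, Haglr and other neighbours, and those of Hoxa3 share 27.1% with antisense genes and Gm28308. Whether counting used the strand is not stated in the sources used here, and reads in those bases cannot be placed on one gene. The order of these genes per length is therefore uncertain.

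Group 4 genes mark the boundary of hindbrain and cervical cord. Hoxc4 had the highest mean per length of these genes at PND1, 1.503 CPM per kb, with 2074 counts and no exon overlap. If reads in shared bases went uncounted, Hoxb3 (52.9% shared) and Hoxd3 (62.8% shared) rank too low here. By the median it was at 0.762 CPM per kb, under Hoxb3 (1.03), Hoxa2 (0.855) and Hoxd3 (0.817). Hoxb4 had 649 counts, Hoxa4 293 and Hoxd4 137, the last with 52.3% of its exon bases shared.

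Group 5 genes act in the cervical cord, where Hoxa5 and Hoxc5 maintain the phrenic motor neurons that drive the diaphragm. Hoxb5 led at a mean of 1.27 CPM per kb with 1893 counts, Hoxa5 had 1090 and Hoxc5 351. Their means lay far above their medians (0.205 CPM per kb for Hoxb5), since the counts were uneven over libraries. Hoxb5 had a highest level of 16.3 CPM and a median of 0.571 CPM.

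Groups 6 to 8 belong to the lower cervical and thoracic cord. Hoxb6 had 333 counts in 12 of 24 libraries, Hoxb7 172 in 12 and Hoxb8 882 in 13, while Hoxa6 had 29 in 9 and Hoxa7 23 in 10. Hoxb8 led its group with a mean of 0.641 and a median of 0.0151 CPM per kb. Hoxd13, which shapes digits and the genital tubercle, had 32 counts spread over 16 libraries with no more than 5 in any.

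By drug and gender code at PND1, group 3 had the highest median CPM in each of the 4 groups of pups. The summed level of group 3 had a median of 28.9 CPM in male morphine, 9.98 in male saline, 3.81 in female morphine and 3.22 in female saline libraries. For group 2 the medians were 4.76, 2.00, 0.882 and 0.886 CPM in the same order. For group 5 they were 17.5, 0.478, 1.25 and 0.0805 CPM. The median of group 8, which is Hoxb8 alone, was 5.31 CPM in male morphine, 0.0222 in female morphine and 0 in both saline groups. In each of these paralogue groups the ranges over libraries of the 4 groups of pups overlapped, and a count of group 8 was present in 5 of 6 male morphine, 2 of 4 female morphine, 3 of 7 female saline and 3 of 7 male saline libraries.

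**Figure D2:**
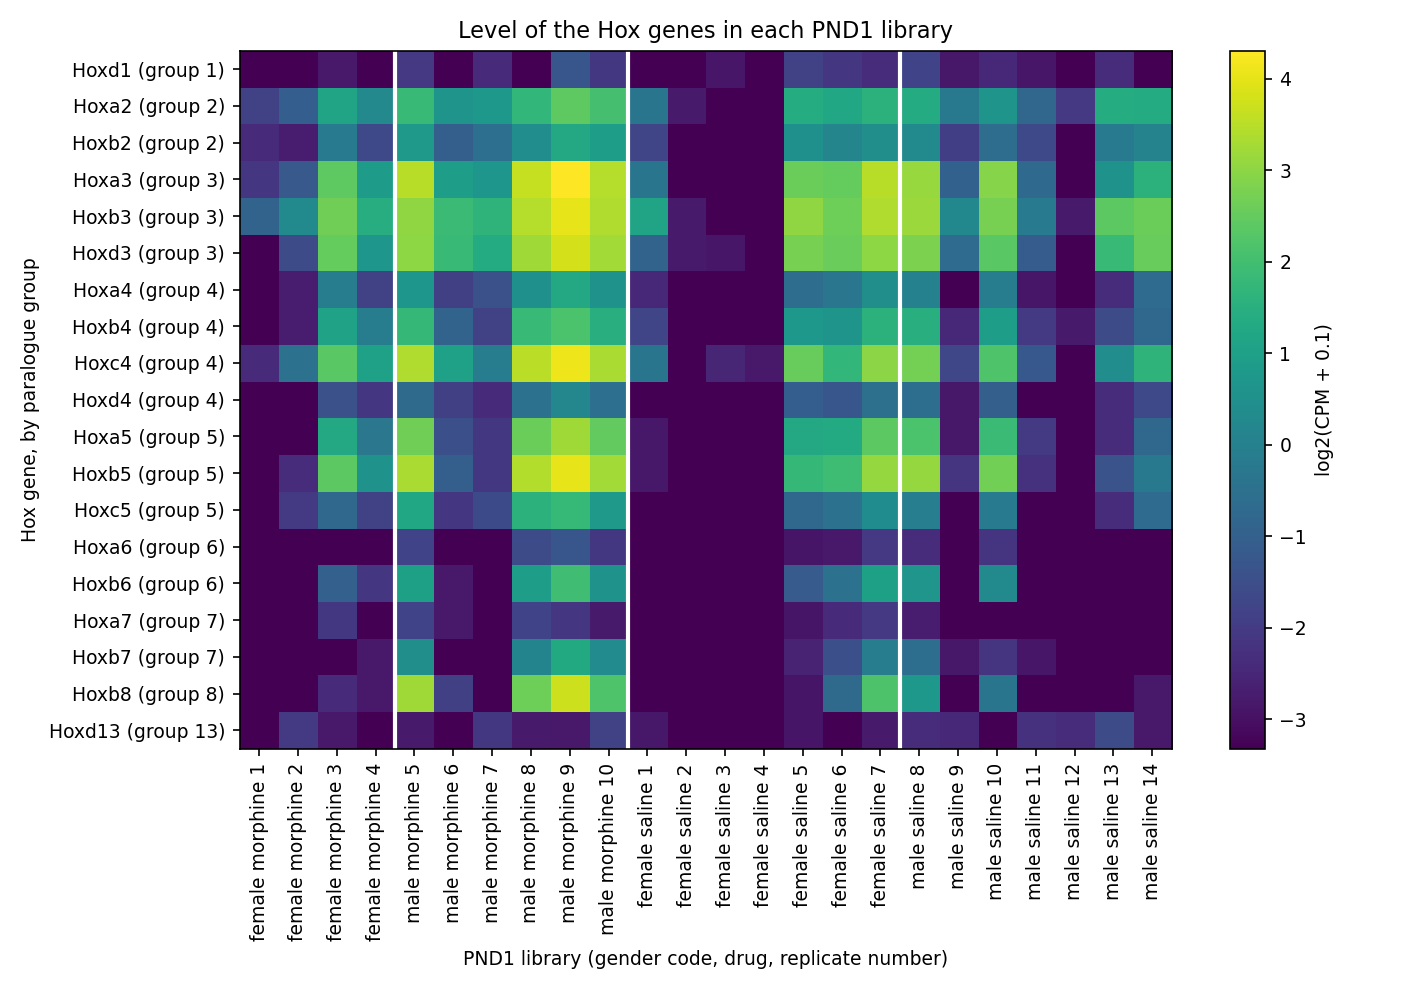
Level of 19 of the 20 Hox genes (rows, by paralogue group) in the 24 PND1 libraries (columns, by group), as log2(CPM + 0.1) in colour. Libraries with high Hoxb8 also hold the genes of groups 2 to 5, and several libraries hold groups 2 and 3 with Hoxb8 at 0.

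Libraries differed in which groups they held, as well as in how much. The share of groups 5 to 8 in the counts of groups 1 to 8, a measure chosen after values were seen, is called the caudal share here. Male morphine 6 had 333 Hox counts and a caudal share of 7.21% (95% Wilson interval 4.89 to 10.5). Female morphine 4 had 291 counts, close to that number, and a share of 19.2% (15.1 to 24.2). Female saline 5 had 1129 counts and a share of 16.7% (14.6 to 19.0), while male saline 10 had 1042 counts and 30.5% (27.8 to 33.4). These pairs were chosen after their shares were seen, and the intervals cover counting error only, not the spread between pups. Of these 4 libraries, 3 are among those whose sex genes go against the label: female morphine 4, female saline 5 and male saline 10. Female morphine 4 held both the female gene Xist (105 CPM) and the Y-linked Ddx3y (53.2 CPM), both without TMM scaling. Whether its RNA came from 1 pup was not tested.

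In the male morphine group the shares were 39.0%, 7.21%, 4.45%, 34.9%, 37.0% and 31.4% for libraries 5 to 10. In male saline, libraries 8, 9, 10, 11, 13 and 14 had 30.9%, 5.68%, 30.5%, 9.09%, 3.05% and 7.50%. High and low shares were present under both drugs. The female saline libraries 5, 6 and 7 had 16.7%, 23.6% and 32.2%, and library 1 had 1.54%.

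**Figure D3:**
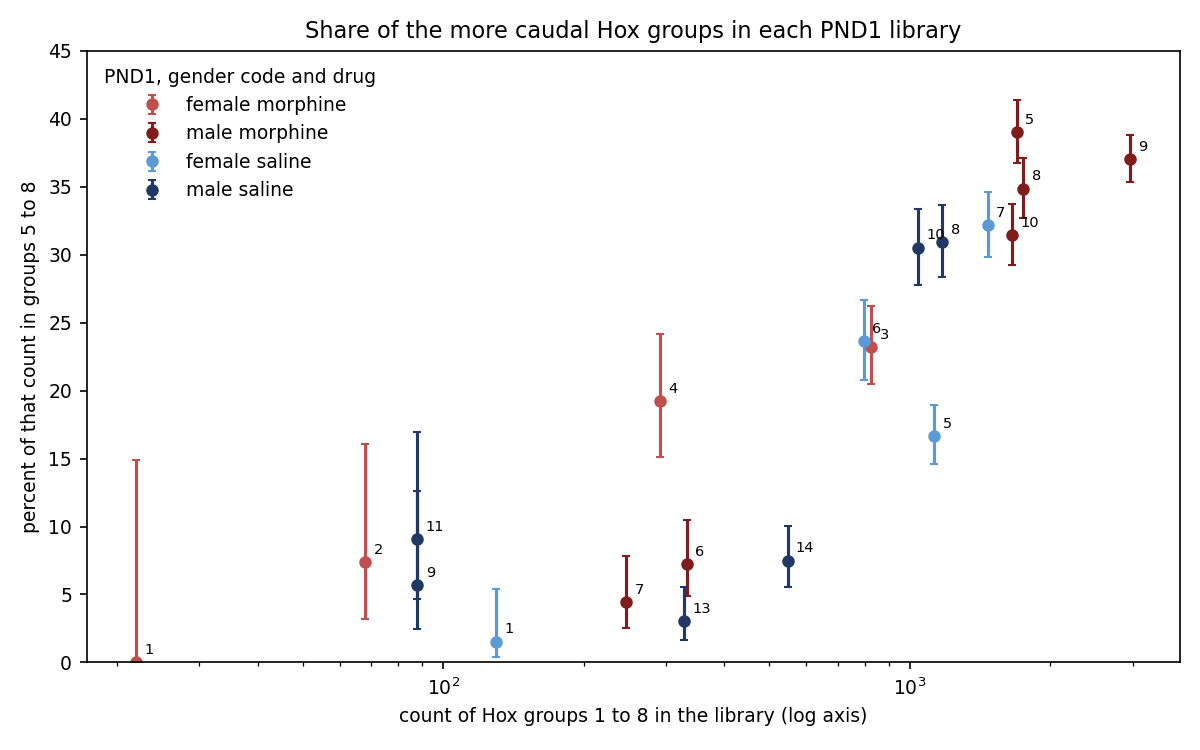
Caudal share (percent of the counts of groups 1 to 8 that fall in groups 5 to 8) with 95% Wilson intervals, against that count (log axis), for the 20 PND1 libraries with at least 20 Hox counts, coloured by group and numbered by replicate. Shares run from 0% in female morphine 1 to 39.0% in male morphine 5, with high and low libraries under both drugs.

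Genes of one paralogue group moved together across libraries. Among the 15 Hox genes with enough counts for the fit, the correlation of log2 CPM over the 24 PND1 libraries had a median of 0.966 (0.947 to 0.993, 13 pairs) for genes of the same group. It was 0.959 at a distance of 1 group, 0.900 at 2, 0.838 at 3, 0.776 at 4, 0.702 at 5 and 0.698 at 6. Over all 105 pairs the median was 0.921. These correlations are over the same 24 libraries, and zeros shared by low libraries enter them. Against the sum of the others, Hoxa3 had the highest r (0.987) and Hoxd13 the lowest (0.231).

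Most of the lncRNA genes measured beside the clusters varied with the Hox sum. Hoxb3os had r = 0.989, Hoxaas2 0.964, Hoxaas3 0.952, Hotairm1 0.948 and Hoxb5os 0.901 with the log2 Hox sum over the 24 PND1 libraries. Hoxd3os1, with 20 counts, had r = 0.306, and Halr1, with 118 counts, had 0.046 on log2 CPM with a prior of 2. Several of these overlap Hox exons, so part of the reads may be shared. The homeobox genes at the cluster ends, Evx1 and Evx2, which mark spinal interneurons, were counted in 24 of 24 libraries and had r = 0.722 and 0.70.

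Markers of hindbrain and spinal neurons moved with the Hox sum. Over the 24 PND1 libraries the summed level of their list had Pearson r = 0.906 and Spearman rho = 0.772 with the log2 Hox sum, and r = 0.863 without the 2 libraries farthest from the median. Within groups r was 0.963 in 7 female saline, 0.899 in 7 male saline and 0.441 in 6 male morphine libraries. Of its 17 tested genes, 11 had r above 0.5. Forebrain markers went the other way, at r = -0.609, rho = -0.553 and -0.567 without 2 libraries, with 12 of 13 genes below -0.5. Within groups r was -0.936 in female saline, -0.364 in male saline and -0.308 in male morphine libraries.

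Other tissues were given the same comparison. Cerebellum markers had r = 0.687 and 5 of 9 genes above 0.5, and motor neuron markers r = 0.697 and 4 of 5. Midbrain markers had r = 0.088, sensory ganglion markers 0.269, skeletal muscle markers -0.057, cartilage and bone markers 0.061 and meninges markers -0.098. The part of dissected hindbrain or spinal tissue in the Hox values was not tested. The total count had r = -0.185.

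**Figure D4:**
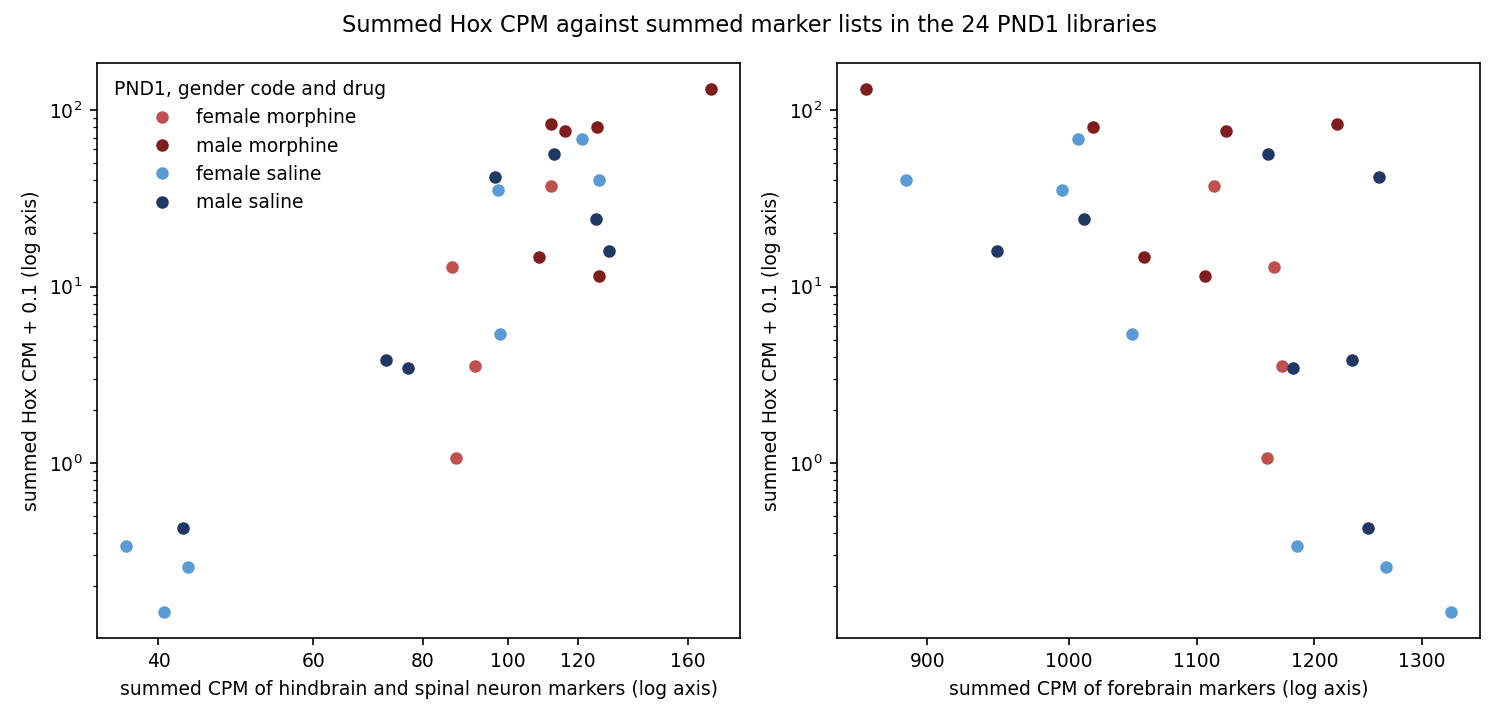
Summed Hox level (CPM + 0.1, log axis) against the summed level of the hindbrain and spinal neuron list and of the forebrain list (CPM, log axes) in the 24 PND1 libraries, coloured by gender code and drug. The Hox sum rises with the first list (r = 0.906) and falls with the other (r = -0.609).

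The partners and regulators of Hox genes did not follow in one way. The cofactor list had r = 0.222, though its member Meis1 had 0.896, the upstream list 0.531 (0.314 without 2 libraries) and the chromatin regulators -0.002. Among all 15959 protein-coding genes tested outside the set, 263 (1.65%) had r above 0.7. Among the 10 with the highest were Slc6a5 (0.977), the glycine transporter of inhibitory hindbrain and spinal neurons, Lamp5 (0.960), Lbx1 (0.945), Lrba (0.943), Gm28308 (0.941), Mab21l2 (0.940), Pax2 (0.938), Pla2g7 (0.929) and Gm28230 (0.923). Gm28308 overlaps Hoxa2 and Hoxa3, and Gm28230 overlaps Hoxd3 and Hoxd4, on the same strand.

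The comparison of morphine with saline in male-coded PND1 pups asked which genes responded to exposure before birth. Hoxb8, Hoxb7 and Hoxc5 passed the test there and were higher with morphine. Hoxb8 ran from 0 over a median of 5.31 to 13.1 CPM in 6 male morphine libraries and from 0 over 0 to 1.59 CPM in 7 male saline libraries. Hoxb7 ran from 0 over 1.09 to 2.40 CPM and from 0 over 0.0368 to 0.577 CPM. Hoxc5 ran from 0.131 over 1.91 to 3.38 CPM and from 0 over 0.0955 to 0.866 CPM. For all 3 genes, 4 of the 6 morphine libraries lay above every saline library and the other 2 within their range.

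In edgeR's quasi-likelihood test with Benjamini-Hochberg adjustment over 21714 genes, the log2 fold change of Hoxb8 was 4.09 (SE 0.97, adjusted p = 0.00646), of Hoxb7 3.14 (SE 0.85, adjusted p = 0.0147) and of Hoxc5 2.41 (SE 0.73, adjusted p = 0.0263). These were 3 of 15 Hox genes tested, where 14.4% of all genes were called in either direction and 6.31% were called higher with morphine. All 15 had a positive fold change, with a median of 1.76 against 0.00903 over all genes, but since they vary together over libraries they are not 15 observations. The other 5 Hox genes, Hoxa6, Hoxa7 and Hoxd13 among them, were too low to test. Hoxb7 passed the filter on low counts only through the male morphine libraries, so its call leans on the group that admitted it. Outside that group its highest levels were 0.847 CPM in female saline 7 and 0.577 CPM in male saline 8, then 0.264 CPM.

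The calls depended on the model and on single libraries. None of the 3 was called with the replicate number as a block, where male morphine 5 to 7 share numbers with female saline libraries. That number is a running index over the pups of a drug, not a pairing. None of the 3 was called with DESeq2, where Hoxb8 had adjusted p = 0.147, Hoxc5 0.228 and Hoxb7 none. Without male morphine 9 only Hoxb8 was called, and without male morphine 8, male saline 9 or male saline 11 Hoxb7 and Hoxb8 were called. Without male saline 8, 5 Hox genes were called, with Hoxc4 and Hoxb6 in addition. With the 4 libraries of mismatched sex genes left out, all 3 calls were still made. One of those libraries, male morphine 5, held Xist at 401 CPM and Ddx3y at 0.0473 CPM without TMM scaling. Its summed Hox level was 80.2 CPM and its Hoxb8 level 9.18 CPM, so a high male-coded library was female by these genes.

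Marker levels stood beside this result. The hindbrain and spinal neuron list was at 108 to 170 CPM (median 121) in male morphine and 42.6 to 130 CPM (median 96.6) in male saline libraries. Of its 17 tested genes 0 were called, where 14.4% of all genes were. Their median log2 fold change was 0.47, against 0.00903 over all genes. Mnx1 is the list's member that was too low to test. The part of these markers in the Hox difference was not tested. In the motor neuron list 1 of 5 was called, Slc5a7, the choline transporter of cholinergic neurons, at 0.54 (SE 0.18).

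Since 14.4% of all genes were called in this comparison, nothing is read from the counts per list. In the forebrain list 1 of 13 was lower, Lhx2 at -0.24 (SE 0.08). Cerebellum markers had 1 higher, Ppp1r17, and 1 lower, En2, of 9. The midbrain, sensory ganglion, skeletal muscle, cartilage and meninges lists and the cluster neighbours had 0 called. Of the 9 cofactors, Pbx2 (-0.19, SE 0.05) and Meis3 (-0.18, SE 0.06) were lower. Among 10 chromatin regulators, Rnf2, a subunit of the Polycomb complex that silences Hox genes, was higher at 0.14 (SE 0.04), and Men1 (-0.18, SE 0.05) and Kdm6b (-0.22, SE 0.06), which promote Hox transcription, were lower. None of 10 upstream regulators was called.

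**Figure D5:**
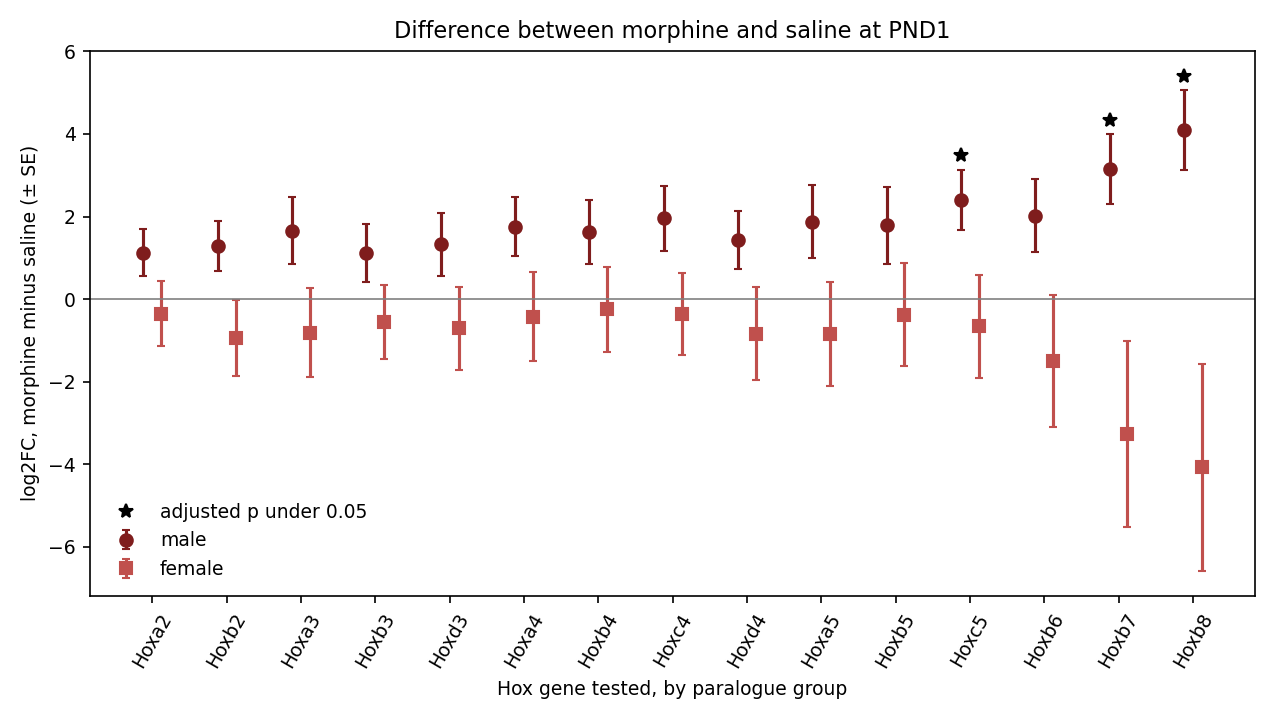
Log2 fold change of morphine against saline at PND1 for the 15 tested Hox genes, with its standard error, in male-coded (circles) and female-coded (squares) pups, and a star where adjusted p is under 0.05. The male values are all positive, from 1.12 to 4.09, and the female values are all negative with a median of -0.71. Sex genes of 4 PND1 libraries go against the code, male morphine 5 among them.

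In female-coded PND1 pups no Hox gene was called. Hoxb8 had 0, 0, 0.0895 and 0.0443 CPM in the 4 morphine libraries and ran from 0 over 0 to 4.42 CPM in the 7 saline libraries. Its log2 fold change was -4.08 (SE 2.51, adjusted p = 0.549 by edgeR), Hoxb7 had -3.27 (SE 2.25, adjusted p = 0.601) and Hoxb2 -0.94 (SE 0.93, adjusted p = 0.738). Without female saline 7 the values of Hoxb8 and Hoxb7 were -1.27 and -1.85, and without female morphine 3 that of Hoxb2 was -2.13. All 15 were negative, with a median of -0.71, and 0 had an unadjusted p under 0.05. Over all genes 0% were called by edgeR, while 2547 had an unadjusted p under 0.05 and DESeq2 called 116 genes, 0 of them Hox genes.

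Joined over both gender codes, 0 of 15 Hox genes were called where 16.8% of all genes were, with 0 at an unadjusted p under 0.05 and 0 by DESeq2. The smallest p-values were those of Hoxc4 (log2 fold change 0.80), Hoxc5 (0.87) and Hoxb4 (0.68). Without female morphine 3 these were 0.24, 0.42 and 0.05. With the replicate block, whose numbers cross gender codes, they were 2.49, 3.76 and 2.47. There 5 Hox genes were called: Hoxa2, Hoxb2, Hoxd3, Hoxc4 and Hoxb5. The drug effect in male-coded minus that in female-coded pups was called for 0 of 15 genes and for 0% of all genes, and 3 Hox genes had an unadjusted p under 0.05. For Hoxb8 it was 8.17 (SE 2.38, adjusted p = 0.871), for Hoxb7 6.42 and for Hoxc5 3.07. Male-coded minus female-coded pups gave 0 of 15 called against 4.73% of all genes, with Hoxb8 at 3.04 (adjusted p = 0.185), Hoxb7 at 2.66 (adjusted p = 0.191) and Hoxc5 at 1.52 (adjusted p = 0.209). That the drug effect differs between gender codes was therefore not shown for any Hox gene.

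At day 14 the levels were too low to compare drugs. None of the 20 Hox genes passed the filter on low counts within PND14 or within 3-Tri, so edgeR gave no test there. With no filter, and with DESeq2, 14 were tested at PND14 and 15 at 3-Tri, and 0 were called for morphine against saline. Median summed Hox levels were 0.220 to 0.312 CPM in the 4 PND14 groups and 0.214 to 0.751 CPM in the 4 3-Tri groups, with overlapping ranges. Pooled by the ID number in the labels, PND14 morphine libraries were at 0.578 and 0.396 CPM and saline libraries at 0.743 and 0.175 CPM. In 3-Tri, morphine libraries were at 0.731 and 0.198 CPM and saline libraries at 0.672 and 0.197 CPM. Of the 38 Hox counts behind the value of 0.578 CPM, 24 came from female morphine 5. What an ID number stands for is not given in the sources used here.

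The Hox genes differed in how much remained at day 14. Hoxc4 had the most, 77 counts over the 48 libraries, then Hoxb3 with 47, Hoxd1 with 34 and Hoxb4 with 28. Hoxa4, Hoxd4, Hoxa6 and Hoxb6 had 0 counts, which, at a floor of 3 counts over the 48 libraries, puts PND1 at least 128-fold, 60.1-fold, 12.7-fold and 146-fold higher. Hoxa7 was at nearly the same level in both, with a pooled ratio of 1.32 (95% interval 0.877 to 2.08), and Hoxd1 had 1.43 (1.02 to 2.07). Hoxb8 had 14 counts, against 882 at PND1.

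In a joint fit of PND14 against PND1, 14 of 15 Hox genes were lower at PND14, where 88.7% of all genes were called in either direction and 44.6% were called lower. The share called is near the background in either direction and above that for lower genes. But the choice of genes favoured PND1, and none of them passed the filter on low counts within PND14 or 3-Tri. They entered this fit through their PND1 levels, so nothing is read from the calls. The fold changes that follow give sizes only. The log2 fold change of Hoxb3 was -5.77 (SE 0.59), of Hoxa2 -5.26 (SE 0.57) and of Hoxd3 -7.34 (SE 0.83), and Hoxb7 at -4.14 was not called (adjusted p = 0.0572). Age and exposure window cannot be told apart here. Hindbrain and spinal neuron markers were lower too, with a median sum of 103 CPM at PND1, 29.3 at PND14 and 30.2 at 3-Tri. Of 17 tested, 15 were lower at PND14 and 2 higher, with a median log2 fold change of -2.74. Of 13 forebrain markers, 10 were lower and 3 higher, with a median of -0.331. The part of dissected tissue in the Hox difference between windows was not tested. For 3-Tri against PND14 0 of 15 Hox genes were called, and 0.0454% of all genes. These Hox genes were near 0 in both windows, so a call could hardly be made. Over the 48 day 14 libraries Slc6a5 (0.752), Uncx (0.673), Mab21l2 (0.672), Slc6a4 (0.652) and Fat2 (0.622) had the highest r with the log2 Hox sum.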

How the data were processed

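RNA of 72 mouse pup brains was sequenced as mRNA libraries. Values are raw, unnormalized counts of reads per gene, in 1 table that the authors deposited. Per the study's methods and the submitters' processing notes, reads were trimmed with Trim Galore 0.6.6, were aligned with HISAT2 2.2.1 to mm10, had duplicates removed by Picard, and were assigned to genes by featureCounts 2.0.1. The strand setting is not given in the sources used here. The authors' own DESeq2 comparison tables were used only for gene names, biotypes and IDs. No column was left unmatched (0), and 0 rows named no gene.

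Hox genes were chosen by name from those tables. CPM used each library's count over the genes that passed the filter on low counts in its window, scaled by its TMM factor. CPM per kb used also the exon length in GENCODE M21. Tests were run in R 4.3.3 with edgeR 4.0.16 (TMM, filterByExpr with a minimum count of 10, quasi-likelihood F test, threshold 0.05 after Benjamini-Hochberg adjustment over all genes tested). limma 3.58.1 and DESeq2 1.42.0 served alternatives, and descriptions used Python 3.11.15. The fits were tested on simulated data. The Hox genes, lists and measures were chosen with earlier results of these data known. Every Hox gene entered the counts and sums, and single values of some genes are not reported here. Statistics are given for up to 8 called genes per comparison by smallest p, or for 3 where fewer were called, for up to 4 genes of each list, and for the 10 genes most like the Hox sum.

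No pair of replicates agreed within sampling noise: the smallest chi-square per gene of any pair was 1.64. Intervals and floors cover counting error only. Alternatives were other size factors, no filter on low counts, DESeq2, a replicate block, a GC and length correction, only the 2 groups compared, each library left out, the ID number as a random effect, and libraries against their label left out.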

Additional observations from a re-analysis of the deposited data

Results flagged for a closer look

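Of 72 groups of values, 7 held a library far from the nearest other one. The limits used flag about 1 in 20 groups only for normally distributed values. These values are skewed with many zeros, and Hox genes vary together, so the 7 are not set against that rate. In PND1 female saline, library 7 stood apart for Hoxb8 (4.42 CPM, next 0.528), Hoxb6 (1.93 CPM, next 0.616) and Hoxb7 (0.847 CPM, next 0.264). In PND1 male saline, library 8 stood apart for Hoxb8 (1.59 CPM, next 0.681) and Hoxb7 (0.577 CPM, next 0.120). Hoxb7 in PND1 female morphine was at 0.0443 CPM in library 4, which is 1 count, and at 0 in the other 3. The summed Hox level of 3-Tri female morphine 7 was 0.717 CPM, and the next library of that group had 0.281 CPM. Causes were not tested.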

How the results depend on the processing

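The replicate numbers were not taken to pair samples. At PND1 they run on across gender codes: male morphine 5 to 7 share numbers with female saline, and male morphine 8 to 10 with male saline. The sample descriptions of PND1 number each group of drug and gender code anew, so the replicate number is a running index. The part of this layout in the block results was not tested. Samples with the same number had correlated deviations of -0.231 to 0.186 at PND1 (10 pairs), -0.203 to 0.119 at PND14 (12 pairs) and -0.082 to 0.296 at 3-Tri (12 pairs), so the block is given as an alternative only. With the number as a replicate block, 0 Hox genes were called in PND1 male pups (3 without it) and 5 in the joined comparison (0 without it). The block also turned the sign of 7 fold changes that were not called: Hoxb8 2.88, Hoxb7 1.58 and Hoxb2 2.31 in PND1 female pups, Hoxc5 -3.04 for the difference in drug effect, and Hoxb8 -2.59, Hoxb7 -2.02 and Hoxc5 -3.74 for male minus female. The block could not be fitted for male minus female at PND14 and 3-Tri. DESeq2 called 0 Hox genes in PND1 male pups. Leaving out 1 library gave 1 to 5 calls in PND1 male pups, 1 without male morphine 9 and 5 without male saline 8, and 0 to 1 in male minus female at PND1 (1, Hoxb8, without female saline 7). The cause was not tested. The remaining counts of Hox calls stayed within 1.5 times the main count, 120 under other settings and 357 with 1 library left out. At day 14, and for 5 Hox genes at PND1, depth was too low for a test in the main fit.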
